A study of Homo sapiens with 58 samples.

Results

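The regulatory elements (REs) described here are the regions of open chromatin at 37 genes for axon guidance and for the cues that steer migrating neural crest: 5 secreted class 3 semaphorins, 3 membrane semaphorins, 6 plexins, 2 neuropilins, 3 slits, 2 robos, 4 ephrins, 7 Eph receptors, and netrin 1 with 4 of its receptors. An RE was taken as a member when its midpoint lay inside the body of one of these genes or within 50 kb of one of its annotated transcript starts (GENCODE release 44, hg38), and the nearest start decided between genes. The rule found 1,122 such guidance REs among the 151,457 REs of the table, from 9 at EPHA7 to 85 at SLIT3. Position is all that ties an RE to a gene here. The midpoint of 56 guidance REs also lay in the body of another protein-coding gene, and for 97 the nearest protein-coding start belonged to another gene. Each RE is named below by its gene and its order along the direction of transcription.

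Accessibility was read by ATAC-seq, an assay in which a transposase places adapters where chromatin is open. The cells were cranial neural crest cells (CNCCs) differentiated in culture from the established human embryonic stem cell line H9. SOX9-tagged cells carried a degradation tag derived from FKBP12, the fluorescent protein mNeonGreen and a V5 epitope at the end of SOX9 on both alleles, so that the small molecule dTAGV-1 directs SOX9 to the proteasome. They came from 2 clones, S9CC13 and S9CC47, and wild-type (WT) cells carried no tag. SOX9-tagged cells were kept for 48 h with 0, 0.5, 1.6, 5, 16 or 500 nM dTAGV-1 (n = 7 each), at which the labels give 100, 77.9, 51.7, 25.8, 8.14 and 0.95% of the untreated SOX9 level. WT cells were kept for 48 h with 0 or 500 nM (n = 2 each), and both genotypes were followed with vehicle for 24 h or with 500 nM for 3 h or 24 h (n = 2 each), the 3 h samples after vehicle for the hours before. A replicate is a separate differentiation or clone.

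Class 3 semaphorins are secreted proteins that bind neuropilins, and plexins pass the signal into the cell. Membrane semaphorins bind plexins directly. Slits are secreted ligands of robo receptors, ephrins are ligands held at the cell surface that signal to Eph receptors on neighbouring cells, and netrin 1 can attract or repel a growing axon depending on whether DCC or UNC5 receptors bind it. Neural crest cells read many of the same cues, which keep their migrating streams apart. SOX9 is a transcription factor of the SOX family that binds DNA in the minor groove at cores related to ACAAT, singly or as a pair of cores facing each other.

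Totals ran from 22.9 to 81.0 M counts per sample, and the median count of a guidance RE in a sample was 127. Values below are in CPM, each count as a share of the TMM-scaled total of its sample. Promoter REs were present for all 11 cranial neural crest genes looked up, TWIST1 and TFAP2A among them, with a summed accessibility of 542 to 734 CPM at 0 nM and 571 to 687 CPM at 500 nM. Promoter REs were also present for 4 of 5 pluripotent, 5 of 5 neural progenitor, 4 of 5 Schwann and melanocyte, 3 of 4 endothelial and 1 of 3 blood genes. The table held no promoter RE for NANOG of the pluripotent list, TYR of the Schwann and melanocyte list, PECAM1 of the endothelial list, or PTPRC and SPI1 of the blood list. The sums cover 19 REs for the crest list and 8, 14, 9, 4 and 2 REs for the other lists in this order, so their sizes are not alike. Summed promoter accessibility at 0 nM was 79.7 to 119 CPM for the pluripotent list, 118 to 197 CPM for the neural progenitor list, 36.6 to 48.5 CPM for the Schwann and melanocyte list, 25.4 to 32.9 CPM for the endothelial list and 5.59 to 7.40 CPM for the blood list. At 500 nM the same sums were 72.02 to 108 CPM, 144 to 205 CPM, 29.5 to 49.9 CPM, 24.0 to 30.9 CPM and 5.66 to 8.10 CPM. Their part in the results below was not tested. In these bulk samples, fewer cells with an open RE and less opening per cell cannot be told apart.

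The sequences below are 80-base windows of hg38, plus strand, from REs on which the results turn. The first 3 come from REs that lost most accessibility within 3 h and hold facing cores, with capitals on both cores, ACAAT or ACAAA on the left and ATTGT or TTTGT on the right. The gap between the cores is 6 bases in EPHB3_RE11 (chr3:184579061-184579140), 7 in EPHB3_RE6 (chr3:184549996-184550075) and 7 in SEMA3E_RE3 (chr7:83672227-83672306).
EPHB3_RE11: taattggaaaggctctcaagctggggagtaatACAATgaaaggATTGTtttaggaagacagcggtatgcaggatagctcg
EPHB3_RE6: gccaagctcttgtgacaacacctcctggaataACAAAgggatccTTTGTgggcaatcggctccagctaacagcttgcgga
SEMA3E_RE3: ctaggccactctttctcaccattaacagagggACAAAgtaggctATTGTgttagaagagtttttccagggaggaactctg
The next 3 are the guidance REs in which ACAAT faced ATTGT at a gap of 3 to 5 bases, the pair that was searched for first. They are PLXNC1_RE24 (chr12:94277718-94277797, gap 4), ROBO1_RE56 (chr3:78881019-78881098, gap 5) and ROBO1_RE1 (chr3:79801178-79801257, gap 5).
PLXNC1_RE24: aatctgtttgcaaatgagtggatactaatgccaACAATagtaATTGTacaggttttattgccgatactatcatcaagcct
ROBO1_RE56: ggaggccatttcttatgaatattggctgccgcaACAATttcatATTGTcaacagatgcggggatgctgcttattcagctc
ROBO1_RE1: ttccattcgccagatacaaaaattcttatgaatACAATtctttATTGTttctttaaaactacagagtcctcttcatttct
The last 5 show REs with large changes and no facing pair. Capitals mark single ACAAT or ATTGT cores in NRP1_RE28 (chr10:33146072-33146151), SLIT3_RE53 (chr5:168885513-168885592) and SEMA5A_RE38 (chr5:9140880-9140959), while PLXNC1_RE16 (chr12:94230672-94230751) and DCC_RE6 (chr18:52439395-52439474) hold neither in the whole RE. The wider letters counted above do occur there: the PLXNC1_RE16 window holds ACAAA and TTTGT, and the DCC_RE6 window holds TTTGT.
NRP1_RE28: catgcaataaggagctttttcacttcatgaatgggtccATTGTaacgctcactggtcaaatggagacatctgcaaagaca
SLIT3_RE53: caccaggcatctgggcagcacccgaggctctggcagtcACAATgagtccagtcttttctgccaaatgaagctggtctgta
SEMA5A_RE38: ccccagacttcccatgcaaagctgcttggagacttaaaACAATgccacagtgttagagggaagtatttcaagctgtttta
PLXNC1_RE16: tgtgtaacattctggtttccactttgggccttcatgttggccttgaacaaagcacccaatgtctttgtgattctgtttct
DCC_RE6: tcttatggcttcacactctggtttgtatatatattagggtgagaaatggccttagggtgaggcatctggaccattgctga

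The first comparison asked which guidance REs change when nearly all SOX9 is removed. At 500 nM for 48 h, 199 of the 1,122 guidance REs (17.7%) were lower than at 0 nM and 100 (8.91%) were higher with an edgeR adjusted p-value under 0.05, against 13.9% lower and 10.2% higher among all REs. All 37 genes had at least 1 called RE, 35 had at least 1 that was lower, 24 at least 1 that was higher, and 22 had both. A log2 fold change of -1 or lower was called in 59 guidance REs at 26 genes (5.26%, against 3.88% of all REs) and one of 1 or higher in 7 (0.624%, against 0.608%), so that large decreases outnumbered large increases in both sets. The median log2 fold change was -0.02 over guidance REs and 0.02 over all REs. Decreases and increases offset each other in this median, so it does not show how far single REs moved. In 246 of the 299 called REs all 7 replicates moved in the called direction.

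**Figure D1:**
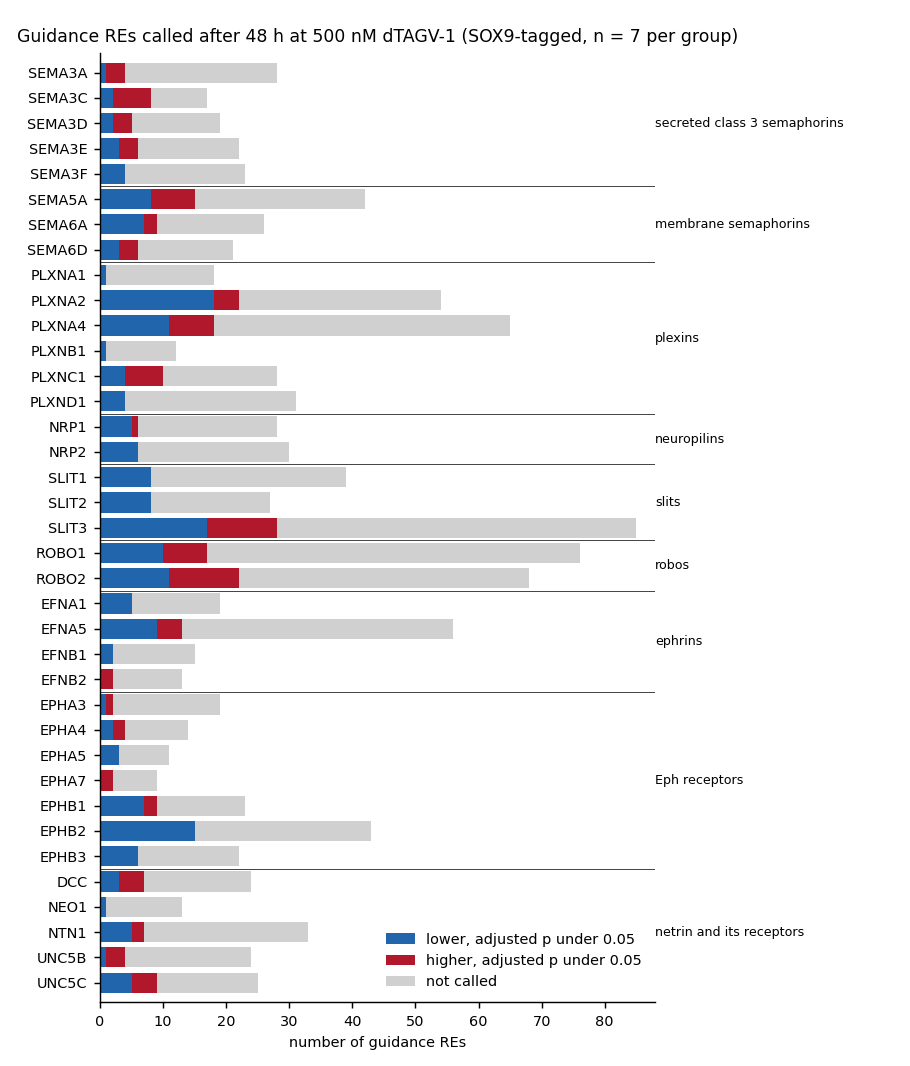
Number of guidance REs per gene (bars) called lower, called higher or not called in SOX9-tagged CNCCs at 500 nM against 0 nM dTAGV-1 after 48 h (edgeR adjusted p under 0.05, n = 7 per group), grouped by role. PLXNA2 has the most lower REs (18 of 54), while EFNB2 and EPHA7 have none.

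Among the 12 REs with the lowest log2 fold changes, taken as at most 3 per gene, none had 0 nM and 500 nM samples that overlapped. These 12 REs belonged to 10 genes, and their log2 fold changes ran from -4.17 to -2.14. Of the 10 with the highest log2 fold changes, from 0.93 to 1.6 at 8 genes, the samples did not overlap in 4 (DCC_RE6, EPHB1_RE22, ROBO2_RE53 and ROBO2_RE54). These REs were picked by the size of this change, so their values are a description.

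Among the class 3 semaphorins, 12 of 109 REs were lower and 15 higher. SEMA3C, whose product acts on cardiac and cranial neural crest as well as on axons, had 6 of 17 REs higher and 2 lower, the largest share of higher REs of the 37 genes. The 2 lower ones, SEMA3C_RE11 and SEMA3C_RE17, were among the REs called at 1.6 nM with the replicate as block, as given below. SEMA3C_RE11, in an intron 33,766 bp downstream of a start (chr7:80884413-80884913), had a lowest, median and highest accessibility of 2.25, 3.63 and 5.59 CPM at 0 nM, and of 0.500, 1.05 and 1.38 CPM at 500 nM. The groups did not overlap, and the log2 fold change was -2.0 (SE 0.19, adjusted p = 8.45e-09). At SEMA3E, 3 of 22 REs were lower and 3 higher, and SEMA3E_RE3, upstream of the gene (chr7:83672069-83672569), went from 1.94, 3.55 and 5.44 CPM to 0.555, 1.08 and 1.38 CPM, with a log2 fold change of -1.94 (SE 0.18). SEMA3D had 2 of 19 REs lower and 3 higher, SEMA3A 1 of 28 lower and 3 higher, and SEMA3F 4 of 23 lower and none higher, the lowest at a log2 fold change of -0.74.

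Of the REs of membrane semaphorins, 18 of 89 were lower and 12 higher, and changes in both directions stood at each of the 3 genes. SEMA5A had 8 of 42 lower and 7 higher, SEMA6A 7 of 26 lower and 2 higher, and SEMA6D 3 of 21 in each direction. SEMA5A_RE38, in an intron 124,848 bp downstream of the nearest start (chr5:9140264-9141130), held 5.87, 11.3 and 14.7 CPM at 0 nM and 1.13, 1.41 and 1.84 CPM at 500 nM. All 7 replicates were lower, and the log2 fold change was -2.80 (SE 0.13, adjusted p = 4.08e-14). In the same gene SEMA5A_RE8 moved the other way, from 0.273, 0.971 and 1.27 CPM to 1.26, 1.80 and 2.59 CPM (log2 fold change 1.12, SE 0.24), although its groups overlapped. SEMA6A_RE19 rose from 0.773, 1.11 and 1.94 CPM to 1.91, 2.66 and 3.80 CPM (log2 fold change 1.24, SE 0.15), and SEMA6A_RE17, in an intron of the same gene, fell from 5.57, 8.46 and 11.2 CPM to 1.83, 2.39 and 3.30 CPM (log2 fold change -1.78, SE 0.12).

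Plexins are the signalling receptors for semaphorins, and 39 of their 208 REs were lower and 17 higher. PLXNA2 had the most lower REs of the 37 genes, 18 of 54, with 4 higher, and PLXNA4 had 11 of 65 lower and 7 higher. PLXNA2_RE36, in an intron (chr1:208105673-208106173), held 2.31, 3.6 and 10.5 CPM at 0 nM and 0.430, 0.727 and 1.13 CPM at 500 nM, a log2 fold change of -2.47 (SE 0.21). At PLXNA4_RE58 the values were 1.89, 3.57 and 4.40 CPM against 0.341, 0.721 and 1.23 CPM (log2 fold change -2.14, SE 0.20). PLXNC1, the receptor of SEMA7A, had 4 of 28 REs lower and 6 higher within 1 gene. PLXNC1_RE16 fell from 3.18, 5.32 and 7.76 CPM to 0.506, 1.07 and 1.56 CPM (log2 fold change -2.51, SE 0.17), and PLXNC1_RE15, the RE before it, rose from 0.263, 0.472 and 0.798 CPM to 0.508, 1.36 and 2.10 CPM (log2 fold change 1.38, SE 0.22) with groups that overlapped. PLXNC1_RE25 rose as well, with a log2 fold change of 0.94 (SE 0.17). PLXND1, which binds SEMA3E directly, had 4 of 31 REs lower and none higher, and PLXNA1 and PLXNB1 had 1 lower RE each, of 18 and 12.

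Neuropilins bind class 3 semaphorins and form the receptor complex with plexins. Of their 58 REs, 11 were lower and 1 higher. NRP1 held 2 of the 12 named decreases. NRP1_RE28, outside the gene body and 39,554 bp downstream of the nearest start (chr10:33145851-33146351), went from 2.71, 3.04 and 3.82 CPM to 0.0909, 0.194 and 0.833 CPM, and the log2 change was -3.58 with SE 0.25 and an adjusted p of 3.32e-11. Each 0 nM sample was above each 500 nM sample, and the highest of the latter, 0.833 CPM, was replicate S9CC47_R5. NRP1_RE17, in an intron (chr10:33257694-33258194), fell from 2.96, 7.29 and 8.34 CPM to 0.699, 1.04 and 1.41 CPM (log2 fold change -2.52, SE 0.15). NRP1_RE23 was the only RE of this pair of genes called higher, from 0.517, 0.733 and 1.79 CPM to 1.09, 1.48 and 2.71 CPM (log2 fold change 0.94, SE 0.18), with overlapping groups. At NRP2 6 of 30 REs were lower, and NRP2_RE13 fell from 6.77, 9.20 and 12.2 CPM to 1.77, 2.25 and 3.08 CPM (log2 fold change -2.0, SE 0.11).

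Slits had 33 of 151 REs lower and 11 higher, and the increases were all at SLIT3, with 17 of 85 REs lower and 11 higher. SLIT1 (8 of 39) and SLIT2 (8 of 27) had lower REs only. SLIT3_RE53 was the most open of the REs with large decreases. This intronic RE (chr5:168885237-168885737) held 34.4, 58.2 and 73.3 CPM at 0 nM and 8.76, 11.7 and 14.4 CPM at 500 nM, and the log2 change was -2.19 with SE 0.09 and an adjusted p of 1.84e-15. SLIT3_RE1, at the far upstream edge of the window (chr5:169350650-169351150), rose from 5.18, 8.82 and 12.5 CPM to 11.4, 17.7 and 26.2 CPM (log2 fold change 1.00, SE 0.12). All 7 replicates rose, yet the groups overlapped.

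The robo receptors that bind slits had 21 of 144 REs lower and 18 higher, with 10 of 76 lower and 7 higher at ROBO1 and 11 of 68 in each direction at ROBO2. ROBO2_RE53 rose from 2.47, 3.36 and 4.04 CPM to 4.84, 6.15 and 8.19 CPM (log2 fold change 0.93, SE 0.11), and its neighbour ROBO2_RE54 from 0.328, 0.604 and 0.755 CPM to 0.834, 1.11 and 1.62 CPM (log2 fold change 1.03, SE 0.19). In both REs the lowest 500 nM sample was above the highest 0 nM sample. The largest ROBO1 decrease reached a log2 fold change of -1.97, and ROBO1_RE47, an intronic RE, fell from 2.84, 3.46 and 4.01 CPM to 0.654, 0.931 and 1.34 CPM (log2 fold change -1.86, SE 0.15).

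Ephrins had 16 of 103 REs lower and 6 higher. EFNA5 held 9 of the lower ones among its 56 REs, and EFNA1 held 5 of 19. EFNB1 (2 of 15) had lower REs only, and EFNB2 (2 of 13) had higher REs only. EFNA5_RE30, upstream of one start and inside an intron (chr5:107535817-107536317), fell from 1.27, 2.82 and 3.82 CPM to 0.363, 0.474 and 1.04 CPM (log2 fold change -2.24, SE 0.23, adjusted p = 5.14e-08).

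The Eph receptors had 34 of 141 REs lower (24.1%) and 7 higher (4.96%). Of the B class, 15 of 43 REs were lower at EPHB2, 7 of 23 at EPHB1 and 6 of 22 at EPHB3 (27.3%). Of the A class, 3 of 11 were lower at EPHA5 (27.3%), 2 of 14 at EPHA4, 1 of 19 at EPHA3 and none of 9 at EPHA7. EPHB3 had the guidance RE with the lowest log2 fold change of all. EPHB3_RE11 lies in an intron, 646 bp upstream of an inner annotated start (chr3:184578852-184579352), and holds the facing cores at a gap of 6 shown first above. It had 13.2, 24.7 and 31.8 CPM at 0 nM and 0.848, 1.05 and 1.96 CPM at 500 nM, and the log2 change was -4.17 with SE 0.15 and an adjusted p of 3.47e-16. The lowest 0 nM sample was above every 500 nM sample. EPHB3_RE6, 11,763 bp upstream of the gene's start (chr3:184549772-184550272), fell from 0.867, 1.77 and 3.04 CPM to 0.0770, 0.180 and 0.592 CPM (log2 fold change -2.79, SE 0.30). The promoter RE between them, EPHB3_RE7, was not called.

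At EPHB1, EPHB1_RE5 fell from 1.61, 2.60 and 5.31 CPM to 0.315, 0.477 and 0.978 CPM (log2 fold change -2.43, SE 0.23), whereas EPHB1_RE22 in another intron rose from 2.28, 3.57 and 4.20 CPM to 4.84, 7.75 and 10.2 CPM (log2 fold change 1.14, SE 0.12). EPHA5_RE7, in an intron 218,828 bp downstream of the nearest start (chr4:65450857-65451357), fell from 1.66, 2.78 and 3.86 CPM to 0.296, 0.631 and 0.725 CPM (log2 fold change -2.24, SE 0.16). No EPHB2 RE was among the 12 named decreases. The lowest log2 fold change at EPHB2 was -1.42, and 4 of its 15 lower REs were at -1 or below.

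Netrin 1 and its receptors had 15 of 119 REs lower and 13 higher. UNC5C, a receptor of the repulsive response, had 5 of 25 lower and 4 higher, NTN1 itself 5 of 33 lower and 2 higher, UNC5B 1 of 24 lower and 3 higher, and NEO1 1 of 13 lower. DCC, the receptor of attraction, had 3 of 24 lower and 4 higher, and held the guidance RE with the highest log2 fold change. DCC_RE6, in an intron 99,238 bp downstream of the nearest start (chr18:52439185-52439685), had 1.09, 1.29 and 1.91 CPM at 0 nM and 2.15, 4.07 and 6.09 CPM at 500 nM. The groups did not overlap, and the log2 fold change was 1.6 (SE 0.16, adjusted p = 3.87e-08). UNC5C_RE8 fell from 3.10, 4.49 and 6.39 CPM to 0.750, 0.945 and 1.67 CPM (log2 fold change -2.13, SE 0.18).

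Promoters were described apart from the other REs. For each gene the most open RE within 1,000 bp of one of its starts was examined. These 37 promoter REs had a mean accessibility of 4.44 to 67.2 CPM at 0 nM (median 20.8 CPM, against 2.45 CPM for guidance REs outside the promoters), and their log2 fold changes at 500 nM ran from -0.73 to 0.23. Of these promoter REs 4 were called lower: PLXNA2_RE45 (log2 fold change -0.73, SE 0.09), PLXND1_RE23 (-0.31, SE 0.05), PLXNC1_RE17 (-0.30, SE 0.09) and SEMA3A_RE2 (-0.21, SE 0.06). PLXNA2_RE45, PLXND1_RE23 and PLXNC1_RE17 lie at inner annotated starts, far from the start of the gene itself, and SEMA3A_RE2 lies at the start of its gene. PLXND1_RE23, the most open of the 37, went from 48.5, 69.8 and 81.2 CPM to 34.5, 61.2 and 70.6 CPM. SEMA3E_RE5 (0.23, SE 0.08) and EPHA7_RE1 (0.18, SE 0.05) were called higher. Among all 109 REs within 1,000 bp of a start of their own gene, EPHB3_RE11 included, 8 were lower and 5 higher (7.34% and 4.59%), against 18.9% and 9.38% of the other 1,013 guidance REs. The same pattern held over the whole table: within 1,000 bp of a start of any gene 8.29% of all REs were lower and 6.33% higher (8.97% and 5.77% of 156 guidance REs), and elsewhere 15.6% and 11.3% (19.2% and 9.42% of 966). These shares were not tested against each other.

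The intermediate concentrations asked how far SOX9 must fall before these REs respond. At 16 nM, 126 guidance REs (11.2%) were lower and 92 (8.2%) higher, against 9.12% and 7.12% of all REs. At 5 nM, 66 (5.88%) were lower and 11 (0.980%) higher, against 4.24% and 1.08%. At 1.6 nM, at 51.7% of the untreated SOX9 level, 0 guidance REs were called by edgeR with differentiation batch as covariate, where 0.0383% of all REs were called, and 70 had p under 0.05 before adjustment. At 0.5 nM 0 were called (0.0% of all REs), 40 had p under 0.05 before adjustment, and DESeq2 called 0. These comparisons share the 0 nM samples. Samples of the same replicate deviated together from their group means, and with the replicate, that is clone and differentiation, as block 344 guidance REs were called at 16 nM (26.1% of all REs), 119 at 5 nM (8.53%) and 21 at 1.6 nM (1.03%).

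The calls at 1.6 nM under the replicate block were 20 lower REs and 1 higher RE at 14 genes. Over all REs the same fit called 1,425 lower and 133 higher. DESeq2 without that block called 5 of the 1,122 guidance REs, all lower, where it called 0.236% of all REs of the table. These REs were named after their values were seen. The lowest was SEMA3C_RE11, at -0.67 on the log2 scale with SE 0.09 (edgeR adjusted p = 7.07e-05) for 1.6 nM, followed by PLXNA2_RE36 (-0.55, SE 0.10), EFNA5_RE30 (-0.55, SE 0.12), EPHA5_RE7 (-0.51, SE 0.12), EPHB1_RE5 (-0.50, SE 0.12), UNC5C_RE8 (-0.49, SE 0.10) and NRP2_RE13 (-0.47, SE 0.08). NRP2 had 3 of the 21 (NRP2_RE5, NRP2_RE13 and NRP2_RE14), and SEMA3C, NRP1, EPHB3, EFNA5 and UNC5C had 2 each. The increase was UNC5C_RE18, in an intron of UNC5C but nearest to the start of BMPR1B among coding genes, with a log2 fold change of 0.28 (SE 0.07). Ligands, co-receptors and receptors were all among them. None of the 151 slit REs was, and with so few calls this absence was not tested. DESeq2 called SEMA3C_RE11, PLXNA2_RE36, NRP2_RE13, SEMA6A_RE17 and EPHB3_RE11.

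**Figure D2:**
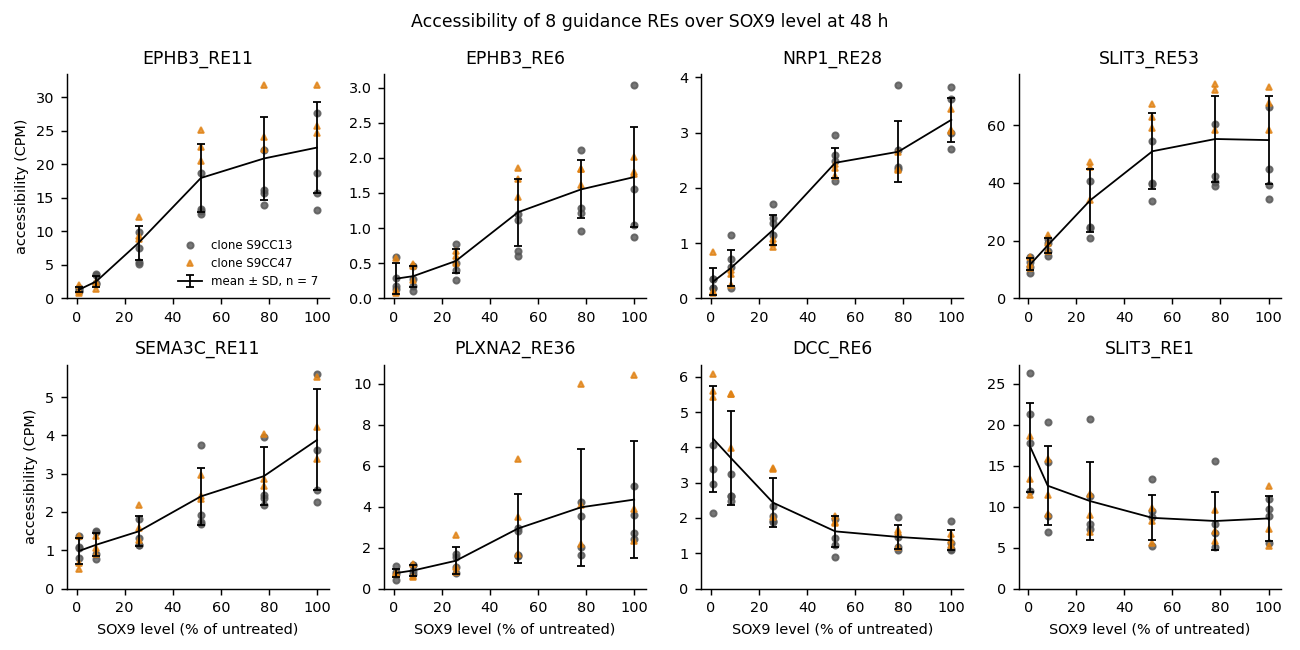
Accessibility (CPM) of 8 guidance REs in SOX9-tagged CNCCs after 48 h against the SOX9 level given by the labels, as percent of untreated. Points are samples by clone, and the line is the mean ± SD (n = 7): EPHB3_RE11 loses most of its accessibility below 51.7% SOX9, SEMA3C_RE11 falls over the whole range, and DCC_RE6 and SLIT3_RE1 rise at low SOX9 levels.

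The shape of the response was summarised by the ED50, the SOX9 level at which a Hill curve between the 0 nM and 500 nM means reaches its middle. A higher ED50 means that accessibility is lost at a smaller reduction of SOX9. The median ED50 was 19.1% of untreated SOX9 over the 199 lower guidance REs (17.3 to 20.9% leaving out each replicate in turn) and 16.9% over the 100 higher ones (15.9 to 19.7%). Over all called REs the medians were 20.5% and 16.4%. An ED50 above 40% was found for 27 of the lower guidance REs (13.6%, against 11.5% of all lower REs) and one below 30% for 141 (70.9%, also 70.9% of all lower REs). Of the roles, the median ED50 of lower REs was highest for neuropilins (34.5%, 11 REs) and robos (33.8%, 21 REs), and lowest for slits (13.7%, 33 REs) and plexins (14.4%, 39 REs). These medians were not tested against each other.

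The genes with several lower REs differed in the same measure. The median ED50 was 9.95% over the 18 lower REs of PLXNA2, 13.3% over the 17 of SLIT3 and 18.7% over the 15 of EPHB2, and it was 33.4% over the 6 of EPHB3, 35.0% over the 10 of ROBO1, 36.9% over the 6 of NRP2 and 40.8% over the 5 of UNC5C. REs of a single gene were far apart as well: at PLXNA2 they ran from 4.57 to 43.4%, and at ROBO1 from 4.90 to 58.0%. EPHB3_RE11 had an ED50 of 32.8% (31.8 to 33.8% leaving out each replicate) and SLIT3_RE53 of 23.3% (22.6 to 24.0%). SEMA3C_RE11 had one of 50.9% (47.9 to 52.5%). These ranges show the pull of single replicates and are not confidence intervals. The 3 values were not tested against each other. Among the 10 named increases the ED50, fitted on the CPM scale, ran from 7.92 to 18.5%, below that of every one of the 12 named decreases (23.3 to 45.6%). On the log2 scale the 2 sets overlapped in the mean share of the 500 nM change reached at 5 nM. That share ran from -17.6 to 102% over the increases and from 33.0 to 80.8% over the decreases. The end points of each curve were set by the groups that chose these REs.

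On the log2 scale, EPHB3_RE11 had moved by 7.74% ± 5.11 (SD, n = 7) of its 500 nM change at 1.6 nM, by 35.8% ± 9.86 at 5 nM and by 76.2% ± 13.98 at 16 nM. SEMA3C_RE11 had moved by 35.3% ± 11.3 at 1.6 nM and by 70.3% ± 15.2 at 5 nM. SLIT3_RE53 had moved by 4.30% ± 5.06 at 1.6 nM, by 33.0% ± 7.34 at 5 nM and by 70.2% ± 9.59 at 16 nM. On this scale it lay close to EPHB3_RE11, although their ED50 values, fitted on the CPM scale, were further apart. In EPHB3_RE11 the 5 nM samples, at 5.05, 8.84 and 12.1 CPM, lay between the 0 nM and the 500 nM samples with no overlap on either side. In SEMA3C_RE11 the 5 nM samples, at 1.14, 1.31 and 2.17 CPM, overlapped those at 500 nM.

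The time course asked which REs respond within hours. Its samples are separate from those at 48 h, but the titles name differentiation R5 in both sets. After 3 h at 500 nM, 112 guidance REs (9.98%) were lower than with vehicle and 15 (1.34%) higher, against 7.43% and 0.912% of all REs. After 24 h 151 (13.5%) were lower and 47 (4.19%) higher, against 9.93% and 4.7%. Both counts rest on the term for differentiation batch, since with no replicate block 0 guidance REs were called at 3 h and 9 at 24 h. Over all REs the same fit called 0 at 3 h, and 969 lower and 0 higher at 24 h. Without the vehicle sample of batch R4, 80 were called at 3 h and 100 at 24 h in both directions, in place of 127 and 198. The 15 higher REs at 3 h fell to 2 without the vehicle sample of batch R5, and the 47 at 24 h to 12 without that of batch R4. DESeq2 called 89 and 134 in both directions, with 6 and 23 increases.

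Of the 199 guidance REs that were lower at 48 h, 93 (46.7%) were also lower at 3 h, against 43.3% of all REs lower at 48 h. Of the 100 that were higher at 48 h, 2 were higher at 3 h and 33 (33.0%) at 24 h, against 1.61% and 26.2% of all REs higher at 48 h. All 12 named decreases had been called at 3 h, with log2 fold changes from -3.49 to -1.61, and none of the 10 named increases had. The lower REs at 48 h were also lower at 3 h in 8 of 9 cases at EFNA5 and 5 of 5 at UNC5C, but in 1 of 15 at EPHB2, 3 of 18 at PLXNA2 and 1 of 8 at SLIT1. The median ED50 was 30.9% over the 93 REs that were lower at both times and 11.6% over the 106 not called lower at 3 h, and 29.7% and 12.6% over the corresponding groups of all REs. Of the 199 lower guidance REs, 3 were higher at 3 h (1.51%, against 1.47% of all lower REs), and they were named after their values were seen: EPHB1_RE15, NTN1_RE30 and PLXND1_RE20 were higher at 3 h (log2 fold changes 0.46, SE 0.12; 0.28, SE 0.08; and 0.55, SE 0.17) and lower at 48 h (-0.57, SE 0.12; -0.25, SE 0.06; and -0.58, SE 0.12).

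**Figure D3:**
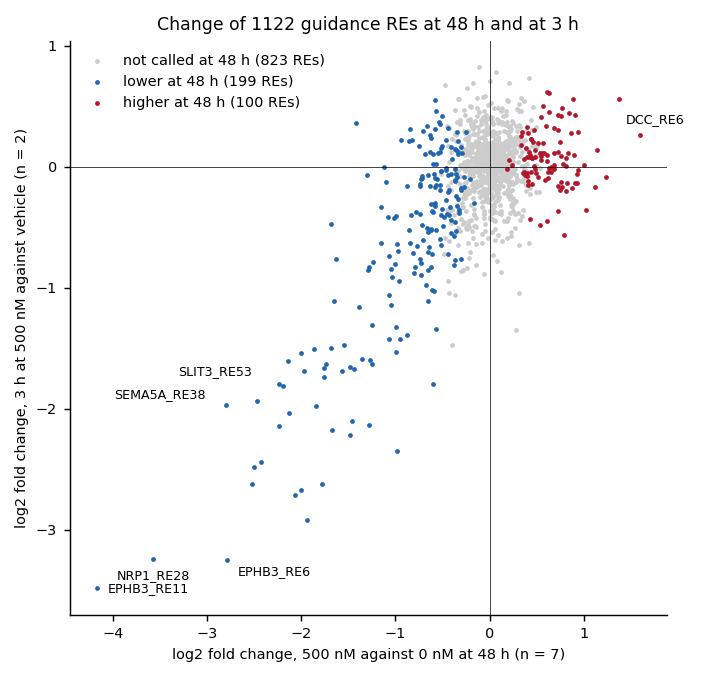
Log2 fold change of each of the 1,122 guidance REs after 48 h at 500 nM against 0 nM (x axis, n = 7 per group) and after 3 h at 500 nM against vehicle (y axis, n = 2 per group), coloured by the call at 48 h. EPHB3_RE11 is lowest on both axes, while REs higher at 48 h spread around 0 at 3 h.

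**Figure D4:**
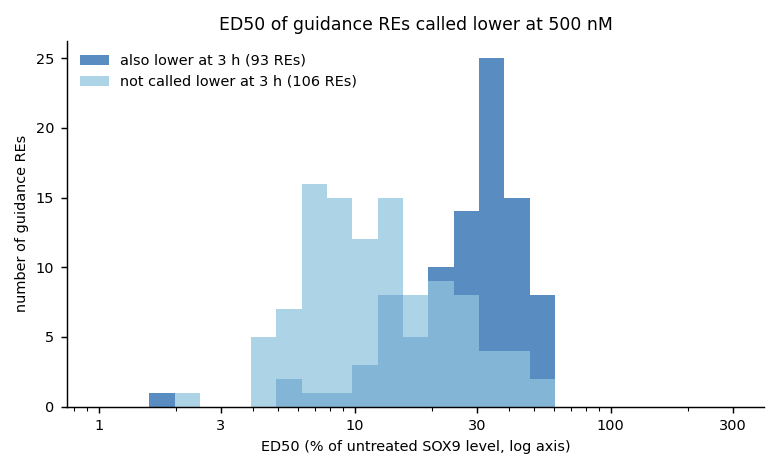
ED50 in percent of untreated SOX9 (log axis) of the guidance REs called lower at 48 h and 500 nM, as numbers of REs per bin. The 93 REs also lower at 3 h have a median of 30.9% and the 106 not called lower at 3 h a median of 11.6%.

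WT cells followed over the same times showed whether the response differs without the tag. In a fit of both genotypes, 82 guidance REs (7.31%) were lower and 1 was higher in SOX9-tagged than in WT cells in their response at 3 h, against 5.13% and 0.072% of all REs. At 24 h 90 (8.02%) were lower and 8 (0.713%) higher, against 6.28% and 0.45%. The total at 3 h ran from 47 to 110 and that at 24 h from 55 to 98 when a sample was left out, and they were 4 and 16 with no replicate block. The lowest totals, 47 and 55, were those without the SOX9-tagged vehicle sample of batch R4.

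The REs with the lowest 3 h log2 fold changes among them were at EPHB3, NRP1, SEMA3E and SEMA3D. EPHB3_RE11 had 45.6 and 20.1 CPM with vehicle in batches R4 and R5, 3.51 and 2.35 CPM after 3 h and 1.35 and 1.53 CPM after 24 h. In WT cells of the same batches it had 50.6 and 28.2 CPM, 53.6 and 26.5 CPM, and 43.5 and 25.9 CPM. In log2 units, its 3 h response differed between the genotypes by -3.50 with SE 0.24 and an adjusted p of 1.58e-09. EPHB3_RE6 had 2.69 and 1.34 CPM with vehicle, 0.2 and 0.218 CPM after 3 h, and 0.140 and 0.295 CPM after 24 h, a difference of -3.49 (SE 0.42) from WT cells at 3 h.

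NRP1_RE28 had 3.19 and 3.88 CPM with vehicle, 0.422 and 0.369 CPM after 3 h and 0.0930 and 0.406 CPM after 24 h. WT cells held 9.51 and 10.1 CPM with vehicle and 9.37 and 10.8 CPM after 3 h, above all SOX9-tagged samples. The difference in response at 3 h was -3.32 (SE 0.32). With vehicle, WT values were above the SOX9-tagged ones of the same batch at other named REs too, SEMA3D_RE8 and UNC5C_RE8 among them. At some they were below, as at SLIT3_RE1. Whether the WT levels themselves differed was not tested. SEMA3E_RE3 went from 5.82 and 7.99 CPM to 0.822 and 1.09 CPM in 3 h, and SEMA3D_RE8 from 1.70 and 1.53 CPM to 0.2 and 0.302 CPM, with differences from WT of -3.00 (SE 0.27) and -2.80 (SE 0.40).

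The 1 guidance RE with a higher 3 h response was SEMA3F_RE2, 30,391 bp upstream of the nearest SEMA3F start and nearest to the start of RBM5 among coding genes (chr3:50123953-50125355). It went from 28.9 and 20.4 CPM with vehicle to 45.5 and 27.6 CPM after 3 h, while WT cells had 29.3 and 20.3 CPM and 28.6 and 18.2 CPM. The difference was 0.56 (SE 0.15, adjusted p = 0.0303), and the RE was not called at 48 h (log2 fold change 0.05, SE 0.07). No guidance RE was called in this direction without the SOX9-tagged or WT vehicle sample of either batch, or without the SOX9-tagged 3 h sample of batch R4. Without the WT 3 h sample of batch R4 or R5 more guidance REs were called in this direction, and so were more REs over the whole table. Each of these fits leaves 1 sample in a group. DCC_RE6, the largest increase at 48 h, had 1.43 and 2.61 CPM with vehicle, 2.02 and 2.97 CPM after 3 h, and 3.63 and 3.87 CPM after 24 h. It was called at 24 h (log2 fold change 0.88, SE 0.20) and not at 3 h. Its 24 h difference from WT cells had an adjusted p of 0.141. SLIT3_RE1 did differ from WT at 24 h, by 0.78 (SE 0.21, adjusted p = 0.0229).

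**Figure D5:**
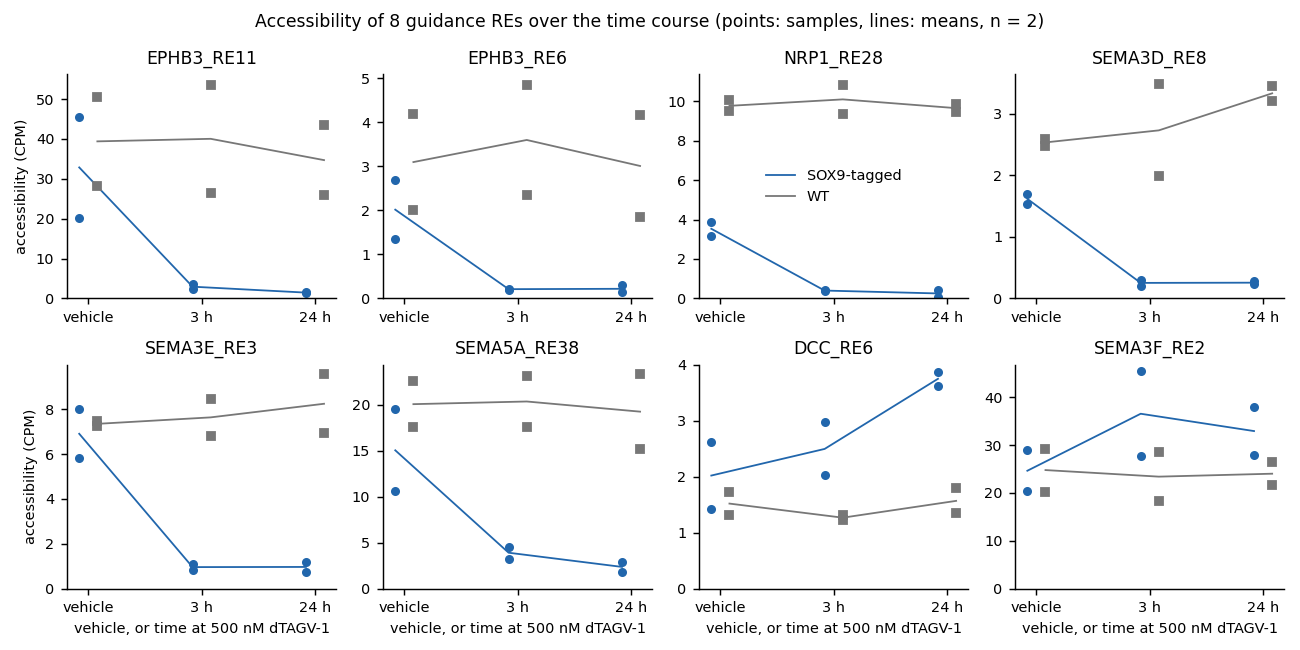
Accessibility (CPM) of 8 guidance REs with vehicle for 24 h and after 3 h and 24 h at 500 nM dTAGV-1 in SOX9-tagged and WT CNCCs. Points are samples (n = 2 per group) and lines join means: in the first 6 REs both SOX9-tagged samples at 3 h lie below both vehicle samples, DCC_RE6 is higher at 24 h, and SEMA3F_RE2 is higher at 3 h in each batch.

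In WT cells alone, few guidance REs were called. At 48 h 3 were called, all lower (0.267%, against 0.303% of all REs): PLXNA4_RE45, EPHB2_RE29 and UNC5C_RE6. Before adjustment 112 guidance REs (9.98%) had an edgeR p under 0.05 at 48 h, against 8.28% of all REs. PLXNA4_RE45 had 19.2 and 24.5 CPM at 0 nM and 13.5 and 20.6 CPM at 500 nM in batches R8 and RSh (log2 fold change -0.38, SE 0.08, edgeR adjusted p = 0.00443), and was not called in SOX9-tagged cells. UNC5C_RE6 had 2.74 and 3.47 CPM against 1.52 and 2.62 CPM (-0.61, SE 0.16), and was not called in SOX9-tagged cells either. EPHB2_RE29 had 18.9 and 9.37 CPM against 15.2 and 6.92 CPM (-0.38, SE 0.10), and in SOX9-tagged cells fell from 3.55, 4.88 and 12.1 CPM to 1.23, 2.18 and 4.44 CPM (-1.42, SE 0.11). Whether these 48 h effects differ between the genotypes was not tested. DESeq2 called 0 of the 3. Fits without 1 WT sample, in which the SOX9-tagged samples at 0 and 500 nM were added to give the spread, called 0 as well, and these 2 changes cannot be told apart. At 3 h and 24 h edgeR called 0 guidance REs in WT cells (0.0% of all REs at both times), 27 and 44 had p under 0.05 before adjustment, and DESeq2 called 0. Without the 3 h sample of batch R4, which leaves 1 sample in that group, calls appeared at 3 h among guidance REs and over the whole table alike.

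The sequence of the guidance REs was then described by features that the choice of members did not use. At least 1 ACAAT core on either strand was present in 64.3% of the 199 lower guidance REs, in 57.0% of the 100 higher ones and in 52.5% of those not called, against 61.6%, 59.8% and 52.5% of all REs in the same classes and 54.5% of all REs together. Among REs lower at 48 h, cores were present in 74.2% of the 93 that were also lower at 3 h and in 55.7% of the other 106 (74.6% and 51.7% for all REs). The pair of ACAAT facing ATTGT at a gap of 3 to 5 was in 3 guidance REs (0.267%) and in 0.186% of all REs. This match needs exact letters, whereas the study scored a weighted SOX9 motif and its inverse. Its palindromes were therefore not counted here, and an RE without this pair may still hold one. PLXNC1_RE24 was called lower at 48 h, from 1.28, 1.98 and 5.19 CPM to 1.04, 1.53 and 2.27 CPM (log2 fold change -0.74, SE 0.17, adjusted p = 0.00199), with overlapping groups. ROBO1_RE56 (log2 fold change -0.15, SE 0.13) and ROBO1_RE1 (0.06, SE 0.15) were not called.

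A wider search, added after the sequences were seen, took ACAAT or ACAAA facing ATTGT or TTTGT at gaps of 3 to 8, which includes the narrower pair. It was matched in 27 guidance REs (2.41%, against 2.53% of all REs). Of the guidance REs lower at both 48 h and 3 h 8 of 93 held it (8.60%, against 10.9% of all such REs), and of those lower at 48 h but not called lower at 3 h 1 of 106 (0.943%, against 2.36%). The match for TFAP2, GCC and GGC at a gap of 3 or 4, was in 28.0% of the 93 and in 45.3% of the 106, against 34.5% and 45.5% of all REs in the same classes and 41.6% of all REs together. The median accessibility at 0 nM was 4.73 CPM for lower REs, 2.13 CPM for higher REs and 2.33 CPM for those not called, where the same classes of all REs had 4.14, 1.999 and 2.25 CPM. By position, 147 of 754 REs in introns were lower (19.5%), 39 of 236 outside the gene bodies (16.5%) and 13 of 132 in exons (9.85%). Of the exon REs 76 lay within 1,000 bp of a start of their own gene, against 28 in introns and 5 outside. Position and closeness to a start were not separated, and shares by position were not computed over all REs.

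The same rule was applied to 49 other genes of these pathways, among them SEMA4 family members, PLXNB2, EPHA2, netrins, RGM proteins, SRGAPs and CXCR4 with its ligand CXCL12. Of their 863 REs, 146 (16.9%) were lower and 50 (5.79%) higher at 500 nM and 48 h, against 13.9% and 10.2% of all REs. At 3 h 40 (4.63%) were lower and 11 (1.27%) higher, where the guidance REs had 9.98% and 1.34% and all REs 7.43% and 0.912%. The difference between the 2 sets was not tested, and the gene lists were chosen with earlier results of these data known.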

How the data were processed

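The deposited values were counts, whole numbers of reads per RE and sample with no normalization, in 1 table of 151,457 REs and 58 samples. According to the study's methods and the submitters' processing notes, the authors used skewer for adapter trimming and Bowtie2 2.4.1 for alignment to hg38, removed duplicates, mitochondrial reads and poorly mapped reads with SAMtools 1.10, called summits with MACS2 2.2.7.1 on shifted cut sites, merged those that recurred across differentiations, and extended them by 250 bp on either side. One set of REs was used for every sample, so that peak calling in single samples does not enter a comparison, and regions open in few samples are not in the table. Duplicates were removed by position, since ATAC-seq reads carry no molecular identifiers.

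Counts were fitted over all REs, without a filter, with edgeR 4.0.16 (R 4.3.3; TMM, trended dispersion, quasi-likelihood F test), and p-values were adjusted by Benjamini-Hochberg over all REs with a threshold of 0.05. The study used DESeq2, which was run as an alternative (1.42.0). For each concentration, its 7 samples and the 7 at 0 nM were fitted with differentiation batch as covariate. Each time course was 1 fit of 6 samples with batch as covariate, and genotypes were compared by an interaction term in a fit of 12 samples with genotype by batch as blocks. Standard errors were derived from the F statistic. CPM values were scaled by TMM over all 58 samples, and log2 CPM used a prior count of 2. ED50 values came from a grid search on batch-corrected CPM means between 1 and 300% SOX9. Scripts were tested on simulated data. Sequences were read from hg38.

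Samples were grouped by titles. The 0 and 0.5 nM samples of S9CC13_R14 carried each other's concentration label, and their titles were used. The columns of SOX9-tagged time-course differentiation R5 name clone S9CC47 where the titles name S9CC13, and clone was not used in those fits. Replicates were taken as paired across concentrations, since a clone and differentiation named in the titles recurs at each of them. Over 87,076 REs with a mean count of at least 100, deviations of same-replicate samples from group means correlated at 0.69 on average between 0 and 500 nM. The lowest correlation of a pair was 0.18, at 5 nM, and at each other dose the lowest was 0.53 or higher. All 5 nM samples were kept. Over 134 pairs of samples within groups the lowest reduced chi-square was 2.60, so none was counted as a duplicate. Intervals between replicates include differentiation and clone.

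REs were named by a rule: the 12 lowest and 10 highest log2 fold changes at 500 nM among called REs with the same sign in 7 replicates, at most 3 per gene and direction, the promoter RE of each gene, REs with facing cores, REs called at 1.6 nM, the 5 lowest and 3 highest at 3 h past the interaction threshold, and REs called in WT cells. REs called at 1.6 nM only under the replicate block were added after their values were seen. The member genes and gene lists were chosen with earlier results of these data known. Alternatives were DESeq2, other size factors, a low-count filter (which removed no RE), narrower member rules, the replicate block, single clones and leaving out each replicate.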

Additional observations from a re-analysis of the deposited data

Results flagged for a closer look

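In 44 groups of 7 samples, those of the 22 REs named for large changes at 0 nM and 500 nM, the distance of the highest or lowest sample from its neighbour was compared with the range of the group. In 3 groups it exceeded the critical share of 0.568, and chance alone flags about 1 in 20 groups. The sample of S9CC47_R5 at 500 nM had 0.833 CPM at NRP1_RE28, where the median was 0.194 CPM. S9CC47_R8 at 0 nM had 10.5 CPM at PLXNA2_RE36, where the median was 3.6 CPM. S9CC47_R5 at 0 nM had 1.94 CPM at SEMA6A_RE19, where the median was 1.11 CPM. All 3 are from clone S9CC47.

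The response to 500 nM dTAGV-1 differed between SOX9-tagged and WT cells in 83 guidance REs at 3 h and in 98 at 24 h by the edgeR interaction term, as given with the time course.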

How the results depend on the processing

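Of the 22 REs named for large changes at 500 nM, 1 lost its call (NRP1_RE23 with no replicate block). Their direction was part of their choice. Of the 299 guidance REs called at 500 nM, 283 were called by DESeq2, 235 of the 272 called in clone S9CC13 alone were among them, and 225 of the 267 in clone S9CC47 alone. Leaving out each replicate gave 266 to 341 calls. The low-count filter removed no RE and so tested nothing. DESeq2, other size factors and both narrower member rules kept each total of calls within 1.5 times, except DESeq2 at 1.6 nM (5 in place of 0) and in WT cells at 48 h (0 in place of 3). Increases in the time course were fewer with DESeq2 (6 in place of 15 at 3 h, 23 in place of 47 at 24 h).

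With the replicate block calls numbered 395 (500 nM), 344 (16 nM), 119 (5 nM), 21 (1.6 nM) and 0 (0.5 nM), against 299, 218, 77, 0 and 0 with batch. With no replicate block they numbered 135 (500 nM), 66 (16 nM), 23 (5 nM), 0 at 3 h, 9 at 24 h, 0 in WT cells at 48 h, and 4 and 16 for the interactions at 3 h and 24 h.

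Leaving out 1 sample gave 80 to 118 calls at 3 h, 100 to 246 at 24 h, 47 to 110 and 55 to 98 for the interactions, and in WT cells 0 to 22 at 3 h and 0 to 3 at 24 h. In WT cells at 48 h it gave 0 to 0, in fits that also took in the SOX9-tagged samples. The lowest at 3 h and 24 h, 80 and 100, were without the SOX9-tagged vehicle of R4. The 3 h interaction fell to 47 and 55 without the SOX9-tagged vehicle of R4 or R5, 49 and 55 without the SOX9-tagged 3 h sample of R4 or R5, and 49 and 53 without the WT vehicle of R4 or R5. The 24 h interaction fell to 55 without the SOX9-tagged vehicle of R4 and to 63 and 58 without the WT vehicle of R4 or R5. WT calls at 3 h were 22 and 1 without the 3 h sample of R4 or R5, and 3 at 24 h without the 24 h sample of R5. A group left with 1 sample was assumed to vary like the others. These leave-out totals are not results about guidance REs, since calls over all REs moved in the same fits. On the log2 CPM scale the median ED50 of lower guidance REs was 15.3% in place of 19.1%. The wider search for facing cores matched 27 guidance REs in place of 3. The cause of these moves was not tested. With 2 samples per group, a difference missed in the time course or in WT cells may be below what these samples can show.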
